A study of Homo sapiens with 6 samples.

Results

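Integrins and focal adhesion proteins were followed as a set of 32 genes out of 27914 in the deposited table. The genes were listed by name, with earlier results of these data known. The set held 11 integrin subunits and 21 adaptor and signalling proteins of focal adhesions and caveolae. RNA sequencing was done on MCF10A, a line of immortal but non-cancerous human mammary epithelium. The compared groups were 3 libraries of α-/-;βin cells, for short PI5P4K-depleted cells, and 3 libraries of SCRin control cells, labelled wild-type. All 6 received doxycycline for 3 days, so both groups carry that exposure. The abbreviations SCR and in are not spelled out in the labels. The Greek letters were taken to mean PI5P4Kα and PI5P4Kβ, kinases of the lipid PI-5-P encoded by PIP4K2A and PIP4K2B, since the series title names PI5P4K. Neither clones nor separate cultures are mentioned, so the p-values reflect the spread among these libraries alone, and that spread could be technical.

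Integrins are membrane receptors made of an α and a β subunit that hold epithelial cells to laminin, collagen and fibronectin. Inside the cell, talin and kindlins bind the β tail. FAK, Src, paxillin and the complex of ILK, PINCH and parvin then gather there and link the receptor to actin. In epithelia this machinery carries mechanical cues to the Hippo effectors YAP and TAZ, which the series title connects to PI-5-P.

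The data are TPM, a transcript abundance per length, scaled to 1 total in every library, that can be compared between genes but keeps no total depth. The number of reads is therefore unknown. Between 14738 and 15058 genes were above 0 TPM in a library. The targeted genes were both lower in PI5P4K-depleted cells, PIP4K2A at 20.4% of the SCRin mean (4.09, 4.16 and 4.35 TPM, against 19.8, 20.2 and 21.7 TPM in SCRin) and PIP4K2B at 43.6% (8.20, 8.69 and 11.6 TPM, against 20.8, 23.1 and 21.4 TPM in SCRin). Their limma adjusted p-values were 0.000847 for PIP4K2A and 0.00985 for PIP4K2B, and PIP4K2B was not called without SCRin replicate 3 (0.0602) or without both libraries numbered 2 (0.116). The 8 basal epithelial markers summed to 3852 to 5713 TPM in PI5P4K-depleted cells and 3404 to 6031 TPM in SCRin, with KRT6A and KRT5 abundant in every library but the basal keratin KRT14 at 59.4, 27.7 and 108 TPM in PI5P4K-depleted cells and 9.50, 9.03 and 67.9 TPM in SCRin. The 8 luminal markers summed to 1423 to 1949 TPM in PI5P4K-depleted cells and 1411 to 2157 TPM in SCRin. AREG, KRT18 and KRT8 made up nearly all of that sum, with ELF5 at 0 in all libraries and ESR1 at 0.167 TPM or less. Summed over 6 fibroblast markers the level was 1.94 to 3.48 TPM in PI5P4K-depleted cells and 0.999 to 4.27 TPM in SCRin, with COL3A1 at 0 in all libraries. The 4 endothelial markers summed to 0.908 to 1.17 TPM in PI5P4K-depleted cells and 0.533 to 1.81 TPM in SCRin. Of 5 leukocyte markers PTPRC was at 0 in all libraries, and CD68 made up most of their sum of 43.5 to 46.0 TPM in PI5P4K-depleted cells and 42.9 to 47.5 TPM in SCRin.

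Of the 32 genes, 31 had a mean of at least 1 TPM and were tested with all other such genes. TNS1, encoding tensin 1, lay below that filter, at 0.308, 0.164 and 0.587 TPM in PI5P4K-depleted cells and 0.123, 0.147 and 0.207 TPM in SCRin. No member was listed at 0 in any library, and 24 had at least 10 TPM in all 6. The most abundant was ITGB1, the β1 subunit that pairs with many α subunits, with 1187 ± 77.8 TPM in PI5P4K-depleted cells and 979 ± 70.2 TPM in SCRin (SD, n = 3 each). CAV1, ITGA3, CAV2 and TNS4 came next, with means over all libraries between 256 and 712 TPM. Among tested members the lowest were ITGB3, at 1.02 ± 0.865 TPM in PI5P4K-depleted cells and 1.19 ± 0.708 TPM in SCRin, and PARVB.

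Among these genes 1 rose, the integrin subunit ITGA4, 0 fell and 30 did not pass the test, an adjusted p under 0.05 by limma on log2(TPM + 1). That is 3.23% of the 31 members, beside 2.19% of all 12096 genes tested. Calls in the higher direction alone made up 0.364% of all genes tested. The median log2 change was 0.03 over the 11 integrin subunits and -0.02 over the 20 tested adaptor and signalling proteins, beside -0.01 over all tested genes. Among the adaptors 0 were called, with changes from -0.90 to 0.48 and an unadjusted p under 0.05 for 3. Over both classes, unadjusted p was under 0.05 for 6 members (ITGA3, ITGA4, ITGB1, GIT1, CAV1 and CAV2), all with higher means in PI5P4K-depleted cells, and for 11.9% of all genes tested. Because bulk RNA was measured, fewer cells expressing a gene and less RNA per cell cannot be told apart.

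**Figure D1:**
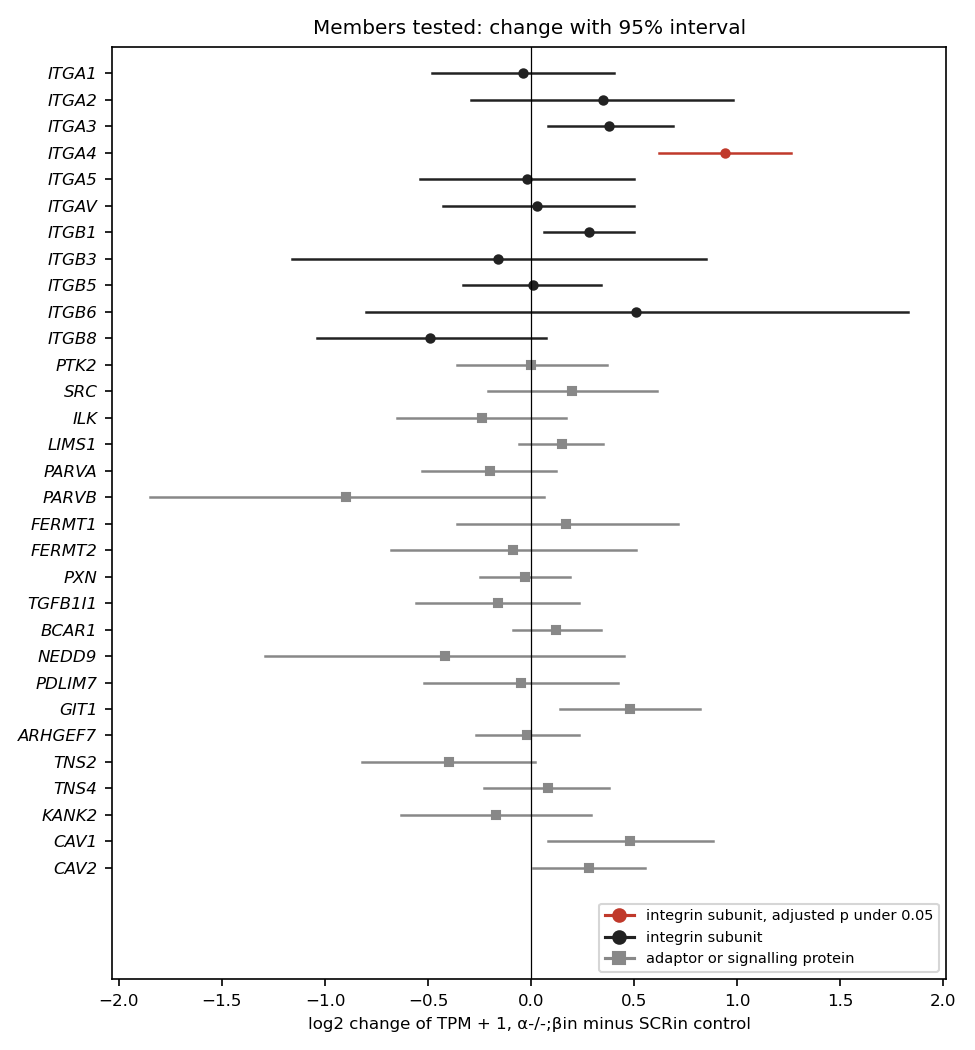
Log2 change of TPM + 1 (PI5P4K-depleted, drawn as α-/-;βin, minus SCRin control, x axis) for the 31 tested members, with the 95% interval of the limma fit; circles are integrin subunits and squares adaptor or signalling proteins. ITGA4 (0.94, interval 0.62 to 1.26) is the gene past the threshold, while the medians of both classes lie within 0.03 of 0.

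ITGA4 encodes α4, which pairs with β1 or β7 and binds fibronectin and VCAM-1, and whose cytoplasmic tail binds paxillin. It measured 10.2, 9.97 and 9.70 TPM in the PI5P4K-depleted libraries, against 4.52, 5.59 and 4.17 TPM in the SCRin libraries. All 3 PI5P4K-depleted values lay above all SCRin values, and they were close to each other. The log2 change was 0.94 (SE 0.14, limma adjusted p = 0.0171), and the PI5P4K-depleted mean was 209% of the SCRin mean. An exact permutation test of TPM, two-sided, gave 0.1, which is the lowest p that a design of 3 and 3 can reach. The call was made in 10 of 17 alternatives (adjusted p 0.00451 to 0.0880). It was lost when any library except SCRin replicate 2 was left out (adjusted p 0.0522 to 0.0880) and without the filter on low values (0.0519), at log2 changes of 0.86 or more. The level remained low beside its relatives, with ITGA4 making up 0.817 ± 0.125% of the summed TPM of the α partners of β1 in PI5P4K-depleted cells and 0.494 ± 0.152% in SCRin.

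The upstream sequence of ITGA4 is shown because it was the 1 member called. It covers the 250 bases before the RefSeq gene start, chr2:181457136-181457385 on the plus strand of GRCh38.p14, with 72.8% G and C. Capitals would mark GGAATG or its reverse complement CATTCC, the core recognised by the TEAD factors through which YAP and TAZ act, searched on both strands, with no other motif searched.
ITGA4: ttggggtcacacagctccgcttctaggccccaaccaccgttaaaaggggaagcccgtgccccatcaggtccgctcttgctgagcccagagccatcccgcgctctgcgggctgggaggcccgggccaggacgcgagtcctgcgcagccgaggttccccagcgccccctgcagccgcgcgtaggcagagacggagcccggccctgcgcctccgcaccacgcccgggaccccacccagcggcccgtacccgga
These letters were not in the ITGA4 window, which with 50 further bases after the start spans 300 bases. The letters were in 2 of the 25 member windows matched by symbol (8.0%), those of ITGA5 and ITGB1, and in 4928 of all 35116 promoter windows (14%). The sites, chosen after the matches were seen, lie in chr12:54419331-54419360 and chr10:32958395-32958424, both on the minus strand of GRCh38.p14, and are printed from the strand of the gene with the motif in capitals.
ITGA5: tccagggacccaGGAATGcccccccgccag
ITGB1: cgcggcgggagaGGAATGcgtttccggagg
The first motif base lay 82 bases before the gene start in ITGA5 and 182 bases before it in ITGB1. A match is a description of the letters and not of binding.

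The other α subunits did not pass the test. ITGA3, the α3 laminin receptor subunit, measured 423, 337 and 356 TPM in PI5P4K-depleted cells, against 319, 249 and 286 TPM in SCRin. The groups did not overlap, which held for 6 of the 31 members (19.4%) and for 17.1% of all tested genes. In 5 of them, ITGA3, ITGA4, ITGB1, GIT1 and CAV1, the PI5P4K-depleted cells were above SCRin, as in 5.64% of all tested genes, and in PARVB they were below it, as in 11.4%. The log2 change of ITGA3 was 0.38 (95% interval 0.08 to 0.69, limma adjusted p = 0.289). ITGA2, the α2 collagen receptor subunit, measured 134, 74.3 and 117 TPM in PI5P4K-depleted cells, against 110.0, 62.8 and 80.9 TPM in SCRin, with overlap and a log2 change of 0.35 (adjusted p = 0.701). ITGA2 made up 90.1 ± 4.93% of the summed TPM of the 4 collagen-binding α subunits in PI5P4K-depleted cells and 90.2 ± 3.31% in SCRin.

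ITGA5, the fibronectin receptor subunit α5, averaged 195 ± 55.8 TPM in PI5P4K-depleted cells and 193 ± 19.4 TPM in SCRin, a log2 change of -0.02 (95% interval -0.54 to 0.50, limma adjusted p = 0.988), with the other sign under upper-quartile scaling and quantile normalization. ITGAV, the partner of most RGD-binding β subunits, measured 121, 90.9 and 141 TPM in PI5P4K-depleted cells, against 104, 99.0 and 141 TPM in SCRin. Its groups overlapped almost fully, with a log2 change of 0.03 (95% interval -0.43 to 0.50). ITGA1, another collagen receptor subunit, averaged 7.49 ± 1.69 TPM in PI5P4K-depleted cells and 7.70 ± 1.34 TPM in SCRin. Annotated exons of ITGA1 overlap PELO, a ribosome rescue factor gene at 30.8 TPM, so their reads may not be separate.

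ITGB1 measured 1205, 1102 and 1255 TPM in PI5P4K-depleted cells, against 999.7, 900.5 and 1036 TPM in SCRin. Every PI5P4K-depleted library stood above every SCRin library, with a log2 change of 0.28 (95% interval 0.06 to 0.50, limma adjusted p = 0.292), so the gene did not pass. Summed over 12 listed α partners, the α level was 1363, 1037 and 1311 TPM in PI5P4K-depleted cells and 1062, 836 and 1072 TPM in SCRin. ITGB1 was thus present at 0.884, 1.06 and 0.957 TPM per TPM of its α partners in PI5P4K-depleted cells, and at 0.941, 1.08 and 0.967 in SCRin. The ranges of this ratio overlapped. The α sum counts ITGA6, at 34.4 ± 2.55% of it in PI5P4K-depleted cells and 30.1 ± 1.52% in SCRin, and ITGAV. Both also pair with other β subunits, so the ratio is not a balance of β1 with partners of its own.

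ITGB6 encodes β6, an epithelial partner of αV that binds and activates latent TGF-β. It measured 279, 88.0 and 232 TPM in PI5P4K-depleted cells, against 198, 60.8 and 161 TPM in SCRin. The spread within each group was wide, with replicate 2 lowest in both groups and groups that overlapped. The log2 change was 0.51 (95% interval -0.80 to 1.83, limma adjusted p = 0.811). With single libraries left out it lay between 0.0017, without SCRin replicate 2, and 1.02, without PI5P4K-depleted replicate 2. With the replicate number as a block the limma adjusted p was 0.00346, but the numbers are not known to pair the samples. ITGB6 had the largest share of the αV-pairing β transcripts other than β1 in every library, at 79.2%, 61.3% and 76.7% of their summed TPM in PI5P4K-depleted cells and 72.2%, 47.1% and 71.2% in SCRin. ITGB5, the more widely expressed αV partner β5, averaged 56.1 ± 9.92 TPM in PI5P4K-depleted cells and 55.4 ± 3.65 TPM in SCRin (log2 change 0.01, 95% interval -0.33 to 0.34).

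ITGB8, another subunit that activates latent TGF-β with αV, lies on the short arm of chromosome 7, where neighbouring genes were lower in PI5P4K-depleted cells. It is described because of that position, after its values were seen. It measured 10.2, 10.6 and 6.77 TPM in PI5P4K-depleted cells, against 15.3, 15.3 and 9.47 TPM in SCRin. Replicate 3 was lowest in both groups, and the groups overlapped through SCRin replicate 3. The log2 change was -0.49 (95% interval -1.04 to 0.07, limma adjusted p = 0.497). The 10 tested genes on each side of ITGB8 had a median log2 change of -0.85, with all 20 below 0. Of these 20, 10 were called lower, beside 1.83% of all tested genes. From FAM20C to CHCHD2, the bounds of this stretch of chromosome 7, the median was -0.91 over 196 tested genes. Of these, 178 had a more negative change than ITGB8. The bounds were drawn from earlier results of these data, so a negative median within them follows from that choice.

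**Figure D2:**
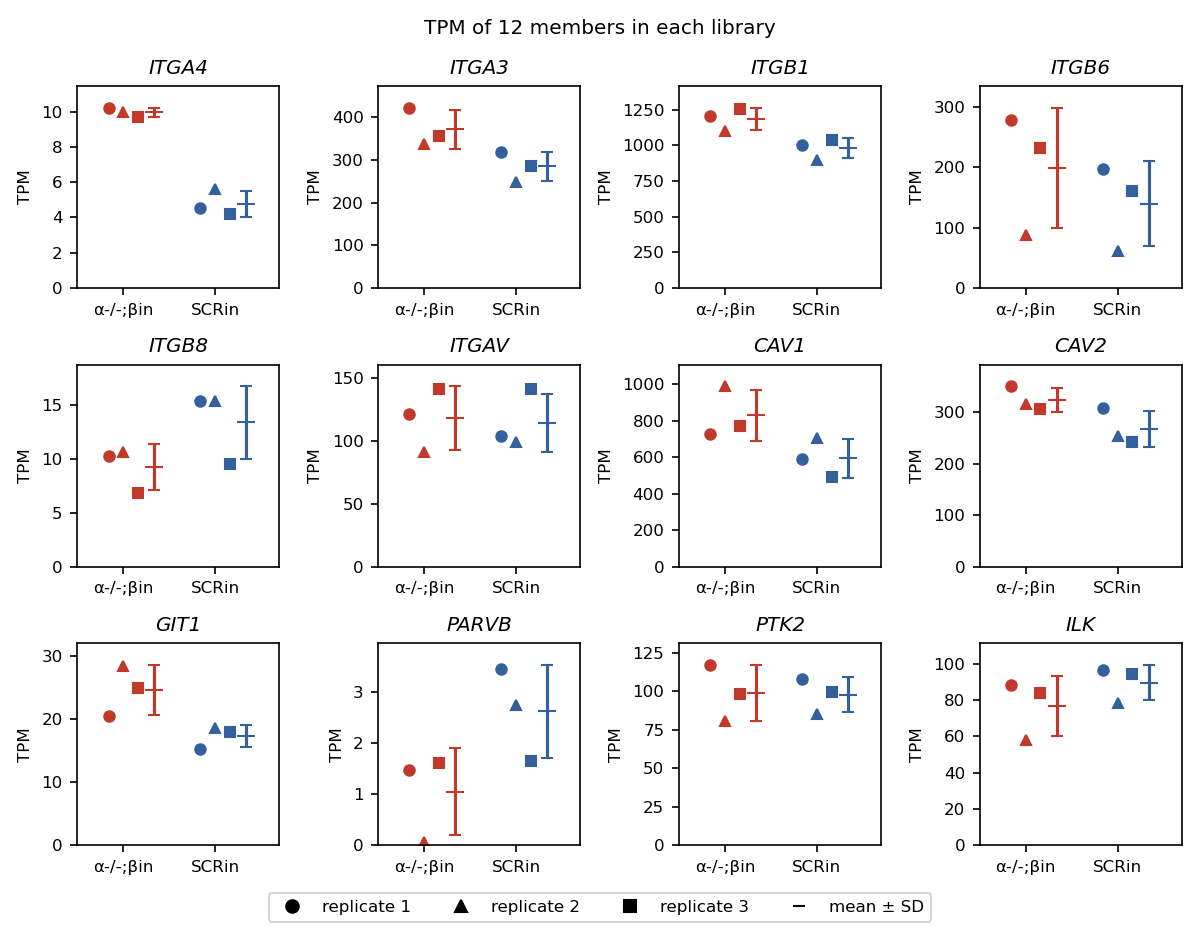
TPM (y axis, from 0) of 12 members in each library of PI5P4K-depleted cells (red, left) and SCRin control cells (blue, right); symbols mark the replicate number and bars the mean ± SD. ITGA4 is separated with little spread, at 9.70 to 10.2 TPM in PI5P4K-depleted cells and 4.17 to 5.59 TPM in SCRin, whereas ITGB6 spans 88.0 to 279 TPM in PI5P4K-depleted cells and 60.8 to 198 TPM in SCRin.

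The other 30 tested members had neighbours with changes closer to 0. The median log2 change of the 20 nearest tested genes lay between -0.13 and 0.07 for these members, in the RefSeq gene order. For ITGA4 this median was 0.00, with 0 of 20 neighbours called. PTK2 is on chromosome 8, and its neighbours had a median of 0.06, against 0.13 with 5 tested genes on each side and 0.14 with 20, where 12 of 40 were below 0 and 1 was called higher. Both of these were the highest medians among the 30 members at those window sizes. CAV1 and CAV2, adjacent genes on the long arm of chromosome 7, had neighbours at -0.03 and -0.06.

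**Figure D3:**
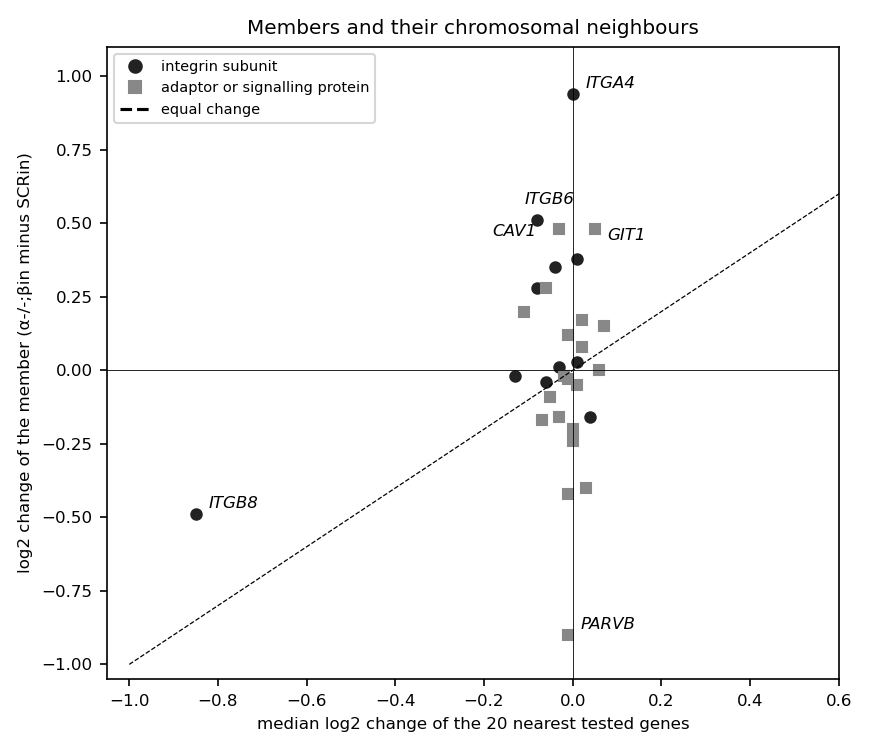
Log2 change of each tested member (y axis) against the median log2 change of the 10 tested genes on each side of it (x axis); the dashed line marks equal change. ITGB8 stands alone at a neighbour median of -0.85, and ITGA4 at 0.94 has neighbours at 0.00.

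Neither kinase of the set passed the test. PTK2, encoding FAK, measured 117, 80.6 and 98.4 TPM in PI5P4K-depleted cells, against 108, 85.4 and 99.4 TPM in SCRin. All SCRin values lay within the range of the PI5P4K-depleted values, with a log2 change of 0.00 (95% interval -0.36 to 0.37, limma adjusted p = 0.997). Its relative PTK2B, encoding PYK2, took 39.1%, 39.6% and 45.1% of their joint TPM in PI5P4K-depleted cells and 34.2%, 36.0% and 34.8% in SCRin, while the log2 change of PTK2B did not pass (0.38, adjusted p = 0.444). SRC, the kinase that FAK recruits, averaged 24.8 ± 2.83 TPM in PI5P4K-depleted cells and 21.7 ± 4.60 TPM in SCRin.

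The complex of ILK, PINCH and parvin anchors β tails to actin. ILK, its pseudokinase, measured 88.1, 58.1 and 83.8 TPM in PI5P4K-depleted cells, against 96.3, 78.4 and 94.0 TPM in SCRin. The ranges overlapped, with a log2 change of -0.24 (95% interval -0.65 to 0.17, limma adjusted p = 0.689). ILK shares annotated exon sequence on the opposite strand with TAF10, a transcription factor subunit gene at 88.2 TPM, and whether the libraries kept strand is unknown. LIMS1, encoding PINCH1, averaged 64.1 ± 4.35 TPM in PI5P4K-depleted cells and 57.8 ± 2.02 TPM in SCRin. LIMS2 was at 0.0634 TPM or less in every library, while reads of LIMS1 may be shared with the related copies LIMS3 and LIMS4, each at 2.10 TPM or less.

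PARVA and PARVB encode the parvins that bind ILK. PARVB measured 1.47, 0.0701 and 1.61 TPM in PI5P4K-depleted cells, against 3.46, 2.75 and 1.65 TPM in SCRin. The groups did not overlap, though PI5P4K-depleted replicate 3 and SCRin replicate 3 almost met. The log2 change was -0.90 (95% interval -1.85 to 0.06, limma adjusted p = 0.455), and it spanned -1.76 to -0.44 over 16 alternatives. PARVA averaged 16.8 ± 2.65 TPM in PI5P4K-depleted cells and 19.4 ± 1.41 TPM in SCRin (log2 change -0.20, adjusted p = 0.664) and made up 94.7 ± 4.18% of the parvin TPM in PI5P4K-depleted cells and 88.0 ± 4.31% in SCRin. PARVG was at 0 in all libraries.

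The kindlins FERMT1 and FERMT2 activate integrins together with talin. FERMT1, the epithelial kindlin, averaged 94.3 ± 24.2 TPM in PI5P4K-depleted cells and 82.6 ± 16.7 TPM in SCRin. FERMT2 averaged 47.8 ± 14.8 TPM in PI5P4K-depleted cells and 49.8 ± 9.87 TPM in SCRin. FERMT1 took 64.5%, 67.3% and 67.8% of the kindlin TPM in PI5P4K-depleted cells and 61.1%, 62.9% and 63.0% in SCRin, so its share was higher in every PI5P4K-depleted library. This difference in share was not tested, and neither gene passed (log2 changes 0.17 and -0.09).

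Among the 7 scaffolds 0 were called, and GIT1 had an unadjusted p under 0.05 (limma). PXN, encoding paxillin, measured 171, 171 and 184 TPM in PI5P4K-depleted cells, against 163, 179 and 195 TPM in SCRin. Its groups overlapped in a narrow range, with a log2 change of -0.03 (95% interval -0.25 to 0.19, limma adjusted p = 0.956) that turned positive under upper-quartile scaling. The paxillin relative TGFB1I1, known as HIC-5, averaged 26.1 ± 5.37 TPM in PI5P4K-depleted cells and 28.99 ± 2.99 TPM in SCRin. BCAR1, the docking protein p130Cas, averaged 30.1 ± 1.27 TPM in PI5P4K-depleted cells and 27.6 ± 1.76 TPM in SCRin. Its relative NEDD9 averaged 3.82 ± 1.88 TPM in PI5P4K-depleted cells and 5.20 ± 1.62 TPM in SCRin (log2 change -0.42, 95% interval -1.29 to 0.45), and PDLIM7, an actin-binding LIM protein, 143 ± 30.6 TPM in PI5P4K-depleted cells and 147 ± 29.1 TPM in SCRin.

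GIT1 is a GTPase-activating protein for Arf that brings the exchange factor β-PIX, encoded by ARHGEF7, to paxillin. GIT1 measured 20.5, 28.4 and 24.8 TPM in PI5P4K-depleted cells, against 15.2, 18.6 and 17.9 TPM in SCRin. All PI5P4K-depleted values lay above all SCRin values, with a log2 change of 0.48 (95% interval 0.14 to 0.82, limma adjusted p = 0.225). GIT1 took 53.9%, 63.3% and 57.0% of the joint GIT1 and GIT2 TPM in PI5P4K-depleted cells and 48.9%, 48.4% and 45.4% in SCRin, with no overlap. This difference in share was not tested, and GIT2 did not pass either (log2 change -0.10, limma adjusted p = 0.848). ARHGEF7 averaged 21.9 ± 0.470 TPM in PI5P4K-depleted cells and 22.2 ± 2.43 TPM in SCRin (log2 change -0.02, 95% interval -0.27 to 0.23), and the sign turned under upper-quartile scaling and quantile normalization.

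Tensins bind actin and β tails, and KANK proteins link the adhesion to cortical microtubule sites. TNS4, a short tensin that lacks the actin-binding region, measured 241, 255 and 289.9 TPM in PI5P4K-depleted cells, against 225, 229.9 and 293 TPM in SCRin, a log2 change of 0.08 (95% interval -0.23 to 0.38). TNS4 was 92.9 ± 0.327% of the tensin TPM in PI5P4K-depleted cells and 86.9 ± 1.75% in SCRin. The complement lay mainly with TNS3, a tensin gene outside the 32 in the chromosome 7 stretch, which took 4.25 ± 0.769% in PI5P4K-depleted cells and 9.50 ± 1.38% in SCRin. TNS2 averaged 7.63 ± 1.83 TPM in PI5P4K-depleted cells and 10.2 ± 0.808 TPM in SCRin (log2 change -0.40, 95% interval -0.82 to 0.02), and its exons overlap SPRYD3, a gene at 24.4 TPM on the other strand. KANK2 averaged 13.8 ± 3.74 TPM in PI5P4K-depleted cells and 15.4 ± 1.87 TPM in SCRin.

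**Figure D4:**
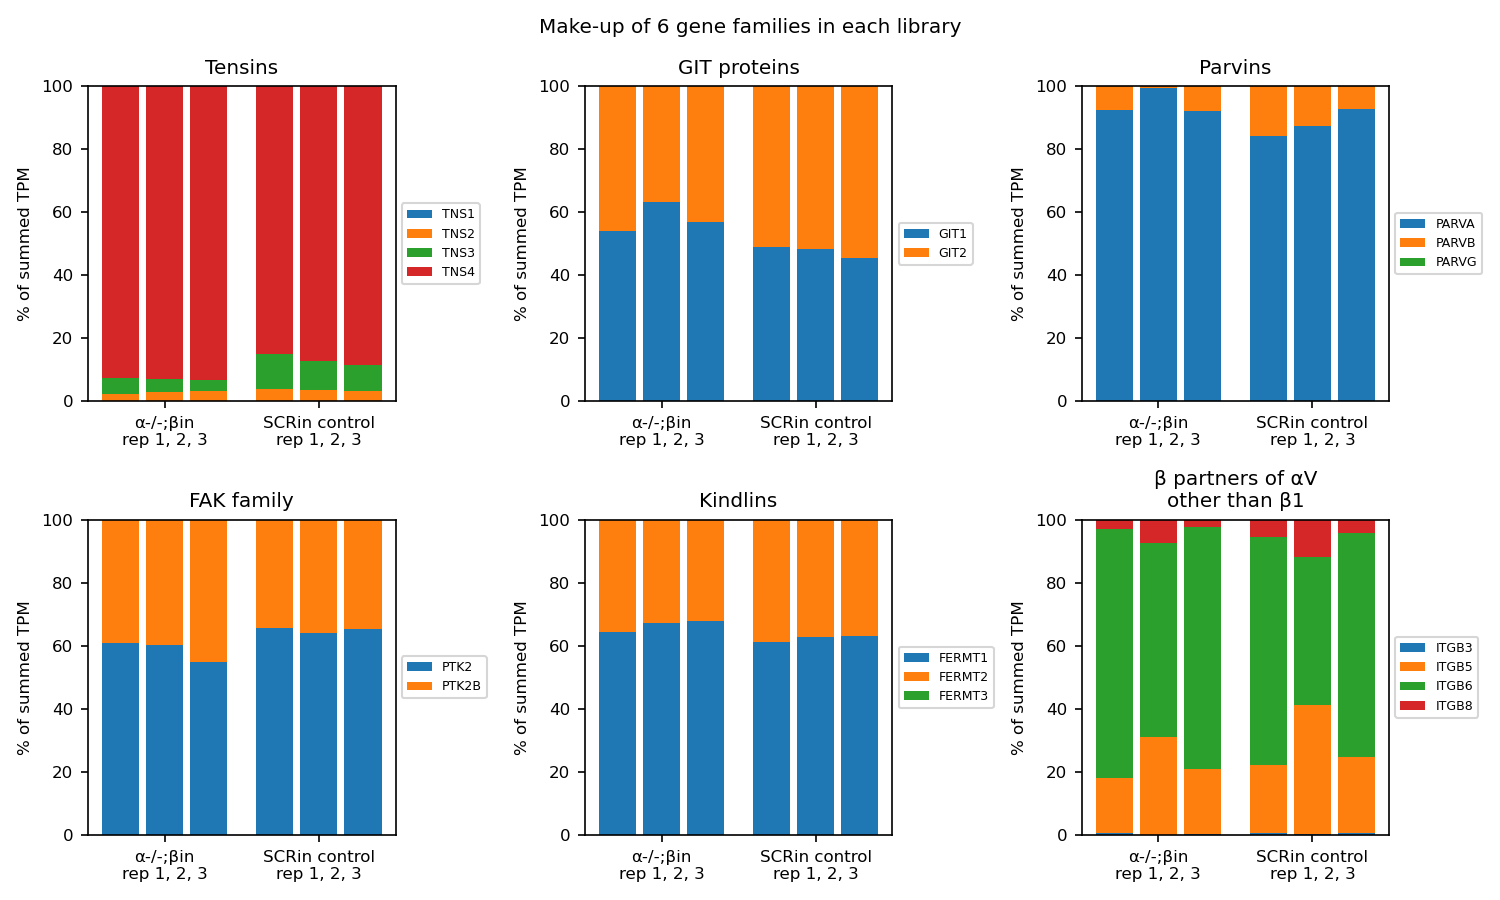
Share of each gene in the summed TPM of its family (y axis, percent) in each library, PI5P4K-depleted replicates 1 to 3 on the left and SCRin control replicates 1 to 3 on the right. TNS3 takes a mean of 4.25% of the tensin TPM in PI5P4K-depleted cells and 9.50% in SCRin, and GIT1 exceeds 50% of its family in the PI5P4K-depleted libraries alone. Differences in share were not tested.

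Caveolins coat caveolae, membrane pits that buffer tension. CAV1 measured 728, 989.8 and 771 TPM in PI5P4K-depleted cells, against 588, 707 and 491 TPM in SCRin. The groups did not overlap, with a log2 change of 0.48 (95% interval 0.08 to 0.88, limma adjusted p = 0.319). CAV2 measured 351, 317 and 307 TPM in PI5P4K-depleted cells, against 308, 254 and 243 TPM in SCRin, which overlapped by 1 library of each group (log2 change 0.28, 95% interval 0.01 to 0.55, adjusted p = 0.399). CAV1 was lowest in replicate 1 of PI5P4K-depleted cells and in replicate 3 of SCRin, unlike most members. Of 6 tested further caveola genes 0 passed in either direction by limma and 0 had an unadjusted p under 0.05, with a median log2 change of -0.17. The coat gene CAVIN1 averaged 185 ± 33.8 TPM in PI5P4K-depleted cells and 219 ± 30.6 TPM in SCRin, and CAVIN3 73.6 ± 13.4 TPM in PI5P4K-depleted cells and 86.8 ± 7.55 TPM in SCRin.

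The members varied between replicates in a shared way. In PI5P4K-depleted cells 22 of 31 members were lowest in replicate 2, and in SCRin 18 of 31 were. For 17 members (54.8%) replicate 2 was lowest in both groups, beside 16.4% of all tested genes. The median deviation of the members from their group mean was -0.26 in PI5P4K-depleted replicate 2 and -0.12 in SCRin replicate 2, on the log2 scale. Over all tested genes the same libraries stood at 0.04 and 0.05. The largest deviations in replicate 2 were those of ITGB6, at -1.01 in PI5P4K-depleted cells and -1.03 in SCRin. The labels give no batch, so what the libraries numbered 2 share was not tested. Without both of them 0 members passed, and ITGA4 had a log2 change of 1.04 (limma adjusted p = 0.0829).

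**Figure D5:**
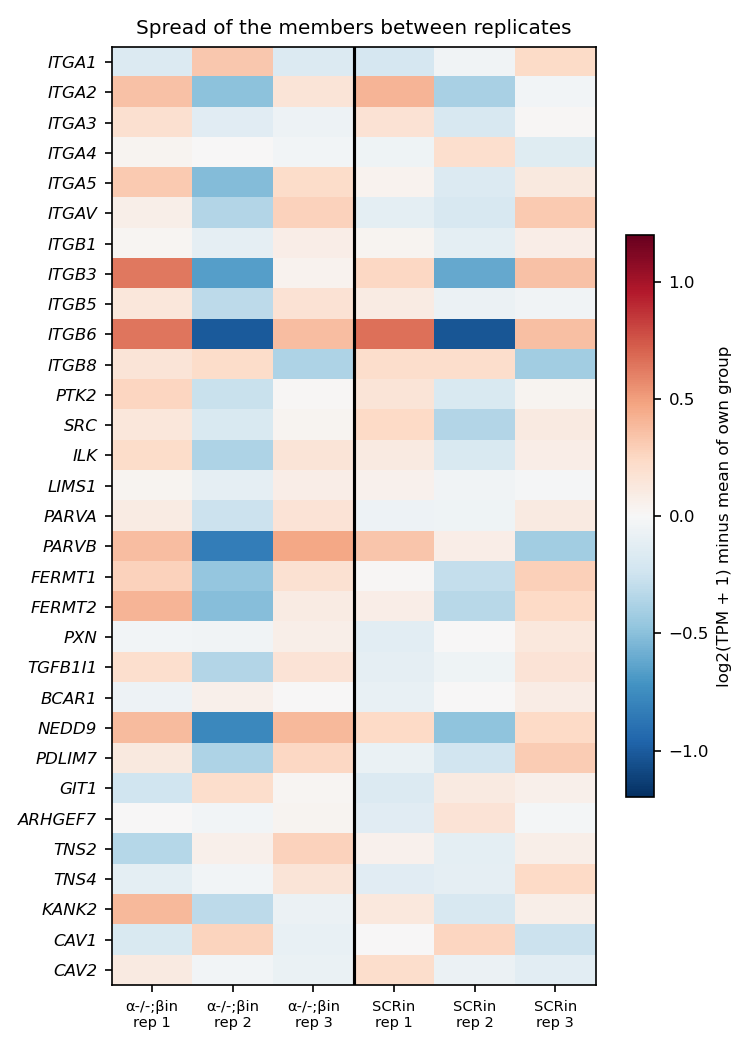
Deviation of log2(TPM + 1) from the mean of the library's own group (colour) for the 31 tested members (rows) in the PI5P4K-depleted and SCRin libraries (columns). The column of replicate 2 is mostly blue in both groups, with 24 of 31 members below the group mean in each, and ITGB6 is the extreme at about -1.0.

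Genes of the wider adhesion machinery were read from lists written with earlier results of these data known. Of 15 further integrin subunits 5 were tested and 0 passed by limma. Unadjusted p was under 0.05 for 3, ITGA6, ITGA10 and ITGB4, and for 11.9% of all tested genes. The hemidesmosome subunits α6 and β4 were the most abundant of the further subunits. ITGA6 measured 430.4, 379.9 and 457 TPM in PI5P4K-depleted cells, against 319.7, 239.6 and 339 TPM in SCRin (log2 change 0.51, 95% interval 0.16 to 0.86, limma adjusted p = 0.215). ITGB4 averaged 256 ± 37.7 TPM in PI5P4K-depleted cells and 185 ± 45.8 TPM in SCRin (log2 change 0.49, adjusted p = 0.417). ITGA10, of low level, measured 2.44, 4.22 and 3.63 TPM in PI5P4K-depleted cells, against 0.448, 1.27 and 1.15 TPM in SCRin. Its log2 change was 1.19 (95% interval 0.55 to 1.83, limma adjusted p = 0.097). The β7 subunit ITGB7, the other partner of α4, was listed at 0.168, 0.203 and 0 TPM in PI5P4K-depleted cells and at 0 in every SCRin library.

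Of 32 tested core adhesion genes, 1 fell and 0 rose, beside 1.83% of all tested genes called lower, with a median log2 change of -0.02. The gene was TNS3 of the chromosome 7 stretch, at 13.1, 11.4 and 11 TPM in PI5P4K-depleted cells, against 29.1, 24.3 and 27.4 TPM in SCRin. Its groups were far apart, with a log2 change of -1.12 (SE 0.12, limma adjusted p = 0.00577), close to the -0.97 median of its 20 neighbours. The call was lost when both replicate 2 libraries were left out (adjusted p = 0.0557). The most abundant core genes, RAP1B, a GTPase that activates integrins, and PTPN12, a phosphatase of p130Cas, had log2 changes of -0.03 and 0.11. The talin gene TLN1, chosen after its values were seen, averaged 98.8 ± 12.5 TPM in PI5P4K-depleted cells and 107 ± 12.9 TPM in SCRin.

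The 24 tested actin-linking genes had a median log2 change of 0.02. FLNA, encoding the actin crosslinker filamin A, averaged 340.2 ± 36.9 TPM in PI5P4K-depleted cells and 279.9 ± 16.8 TPM in SCRin and did not pass (log2 change 0.28, limma adjusted p = 0.360). The non-muscle myosin gene MYH9 averaged 322 ± 58.1 TPM in PI5P4K-depleted cells and 301 ± 52.5 TPM in SCRin, and it did not pass either (log2 change 0.10, adjusted p = 0.908).

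Of 26 tested ligands and matrix partners of integrins, 1 rose and 0 fell, with a median log2 change of -0.03. Among all tested genes 0.364% were called higher and 1.83% lower. LTBP1, which tethers latent TGF-β to the matrix where αVβ6 acts on it, measured 114, 125 and 131 TPM in PI5P4K-depleted cells, against 87.6, 89.1 and 88.3 TPM in SCRin. The groups were separate and SCRin hardly varied, with a log2 change of 0.47 (SE 0.08, limma adjusted p = 0.0414). The call was made in 9 of 17 alternatives (adjusted p 0.00974 to 0.225) and was lost with any single library left out. LAMB3, a laminin chain, was abundant, at 1017 ± 250.2 TPM in PI5P4K-depleted cells and 1304 ± 350.3 TPM in SCRin, with a log2 change of -0.36 (adjusted p = 0.656). The α4 ligand VCAM1 was at 0 in all libraries. The fibronectin gene FN1 was chosen once its values were known. It measured 82.9, 101 and 189 TPM in PI5P4K-depleted cells, against 29.6, 64.3 and 123 TPM in SCRin, with overlap and a log2 change of 0.91 (adjusted p = 0.591).

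Of 20 tested integrin partners and trafficking genes, 1 rose and 0 fell, beside 0.364% and 1.83% of all tested genes. Their median log2 change was -0.07. CD82, a tetraspanin that associates with integrins, measured 54.8, 48.4 and 53.5 TPM in PI5P4K-depleted cells, against 33.8, 29.6 and 36.4 TPM in SCRin. The groups did not overlap, with a log2 change of 0.64 (SE 0.11, limma adjusted p = 0.0324). The call was made in 8 of 17 alternatives (adjusted p 0.00522 to 0.154) and was lost with any single library left out. SLC3A2, the integrin-binding amino acid transporter chain CD98, and LGALS3, a galectin, were the most abundant, with log2 changes of 0.46 and -0.12.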

How the data were processed

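The authors deposited 1 table of TPM for 27914 genes with 1 column per sample, each summing to 1000000. Per the submitters' processing notes the genome build was hg19. Aligner, quantifier, annotation and strandedness are not given in the sources at hand. Control columns matched the control titles by replicate number, and the other columns were assigned to α-/-;βin (PI5P4K-depleted) as the remaining group. Genes averaging 1 TPM or more over the 6 libraries were tested on log2(TPM + 1), which understates the change of low genes, with limma 3.58.1 in R 4.3.3 (mean-variance trend, two-sided, Benjamini-Hochberg over all 12096 tested genes, threshold 0.05). The fit was tested on simulated data with independent noise for each gene, which lacks the spread that the members shared between replicates. It called 20.9% of genes changed by 0.5 on the log2 scale, 59.7% at 1.0 and 93.9% at 2.0. Of the calls made, 3.33% were false. A gene that did not pass may therefore still differ, even by 1.0 on the log2 scale. Genes of the lowest levels were left unchanged in the simulation, so these shares do not cover them. Depth is unknown, so no counting intervals are given.

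Members and gene lists were chosen with earlier results of these data known. Values in every library are given for members with an unadjusted p under 0.05 or a log2 change of at least 0.5 in size, for ITGB1, ITGAV, PTK2, PXN and ILK, and for called genes of the further lists, whose 2 most abundant genes are also named. Some results that this rule names are not reported here. Other genes were described in full after their values were seen. Gene order and promoters (RefSeq) and exon overlaps (GENCODE v29) came from GRCh38 annotation, matched by symbol, and not from hg19. The 17 alternatives changed the pseudocount, filter, trend, scaling, weights, block or libraries.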

Additional observations from a re-analysis of the deposited data

How the results depend on the processing

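Over 17 alternatives to the processing, the count of members past the threshold stayed at 1, ITGA4, in 9. It was 0 without the filter on low values, which tests 17474 genes, and 0 to 1 with single libraries left out. It was also 0 without both libraries numbered 2, an alternative chosen after the data were seen, where 52 genes passed in all. Over all genes, 265 passed in the reported fit, 496 with array weights and 106 to 219 with single libraries left out. With single libraries left out, the median log2 change of integrin subunits ranged from -0.03 to 0.26, against 0.03 in the reported fit. That of the adaptors ranged from -0.07 to 0.09, against -0.02.

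With the replicate number as a block, 881 genes and 8 members passed: ITGA3, ITGA4, ITGB1, ITGB6, CAV1, CAV2 and GIT1 higher and ITGB8 lower. The numbers are not known to pair the samples. Deviations of same-numbered libraries correlated across genes at 0.246, 0.269 and -0.015 for numbers 1, 2 and 3, and number 3 did not correlate best with itself.

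Signs turned only for members with a reported log2 change between -0.16 (ITGB3 and TGFB1I1) and 0.03 (ITGAV). With upper-quartile scaling ITGA5, PXN and ARHGEF7 had log2 changes of 0.016, 0.0076 and 0.018, and with quantile normalization ITGA5 and ARHGEF7 had 0.013 and 0.0071. Without short RNA genes ITGB5 and PTK2 stood at -0.00042 and -0.0015, and with array weights ITGA5 at 0.059. Without both libraries numbered 2, ITGA5, FERMT2, PDLIM7 and ARHGEF7 had 0.16, 0.0011, 0.021 and 0.075. With single libraries left out the ranges crossing 0 were -0.20 to 0.075 for ITGA1, -0.17 to 0.24 for ITGA5, -0.11 to 0.21 for ITGAV, -0.46 to 0.18 for ITGB3, -0.08 to 0.16 for ITGB5, -0.13 to 0.14 for PTK2, -0.29 to 0.16 for FERMT2, -0.094 to 0.034 for PXN, -0.26 to 0.015 for TGFB1I1, -0.18 to 0.13 for PDLIM7 and -0.087 to 0.062 for ARHGEF7. The cause was not tested.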

Other observations

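Among the 26 tested ligands and matrix partners of integrins, the groups did not overlap for 12 (46.2%), beside 17.1% of all tested genes, while 1 of them, LTBP1, passed the adjusted threshold. In PI5P4K-depleted cells 8 were below SCRin in every library, as in 11.4% of all tested genes. They were the matrix proteins TNC, THBS1, POSTN, FBN1, COL12A1 and the laminin chains LAMA1, LAMB2 and LAMC1. THBS1, thrombospondin, measured 295, 195 and 297 TPM in PI5P4K-depleted cells and 445, 310.0 and 473 TPM in SCRin (log2 change -0.64, limma adjusted p = 0.299). TNC, tenascin C, measured 2.87, 1.28 and 4.07 TPM in PI5P4K-depleted cells and 8.59, 5.18 and 13.8 TPM in SCRin (log2 change -1.43, adjusted p = 0.185). The other 4 were above SCRin in every library, as in 5.64% of all tested genes. They were TGFB1, its binding proteins LTBP1 and LTBP3, and ICAM1. These genes were singled out after their values were seen, from a list written with earlier results of these data known.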
